A study of Mus musculus with 18 samples.

Results

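Mouse pluripotent stem cell lines with a 129 strain background were set against lines from C57BL/6 (B6) by DBA/2 (D2) F1 mice. The lines were chosen by sample title and strain label. All 18 arrays of the series, from 6 cell lines with 3 arrays each, entered the comparison. The 129 group held 2 lines (6 arrays): R1, an embryonic stem (ES) cell line whose strain label is 129X1/SvJ x 129S1 F1, and the line IP14D-101, an induced pluripotent stem (iPS) cell line of strain B6 x 129S2 F1. IP14D-101 thus carries B6 chromosomes as well. The B6 x D2 F1 group held 4 lines (12 arrays): the ES line ESC2 and the iPS lines IP14D-1, IP20D-3 and IP36D-3. All lines were grown with leukaemia inhibitory factor (LIF) on growth-arrested mouse embryonic fibroblast feeders, in serum or serum replacement. Which medium a given line received is not in the labels. Each array measured 1 total RNA preparation on an Affymetrix expression array, and all levels below are log2 of the authors' RMA intensity.

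Inbred mouse strains differ at many sites in coding and regulatory DNA, and pluripotent lines of different strains differ in how readily they are derived and kept in culture. ES and iPS cells share a core circuit of transcription factors, including Oct4 (Pou5f1), Nanog and Sox2. They also carry imprinted genes, expressed from 1 parental allele, and large families of KRAB zinc finger genes, whose proteins mostly silence transposable elements and lie in clusters that differ between strains.

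The unit of the comparison was the line, and with 2 lines against 4 an exact permutation test of a single gene cannot give a two-sided p below 0.0667. Tested in limma on the 6 line means, 1 of 18193 genes was called, 0.0055% of those tested, and this gene was Mid1. A call required a log2 difference of 1 or more either way together with a Benjamini-Hochberg adjusted p below 0.05. With Mid1 included, 4017 genes had an unadjusted p under 0.05. With cell type as a term, 0 genes were called. To describe more than 1 gene, the 129 difference was also read in a pair of contrasts that share no array: R1 against ESC2, both ES lines, and IP14D-101 against the mean of the 3 B6 x D2 iPS lines. These contrasts use the spread between arrays of a line, so a call in either says that these lines differ, and line and strain cannot be told apart within it. In each, every gene with a log2 difference of at least 1 also passed the adjusted p, so the fold alone decided the calls.

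In R1 against ESC2, 797 genes were called higher (4.38% of genes tested) and 682 lower (3.75%). In IP14D-101 against the B6 x D2 iPS lines, 291 were called higher (1.6%) and 408 lower (2.24%). Both contrasts called 143 genes higher (0.786%) and 164 lower (0.901%), and they called 14 genes in opposite directions. The third array of IP14D-101 stood apart among the lower calls: it was the lowest of the 3 arrays of its line for 136 of the 164 genes (82.9%), against 25.9% of all genes. Without that array, 119 genes were called higher in both and 112 lower, so the lower calls no longer outnumbered the higher ones. Without replicate 3 of every line the counts were 121 and 103. Leaving out this array was a setting chosen after the data were seen. The 307 genes called alike were 20.8% of the calls between the ES lines and 43.9% of the calls between the iPS lines. Across all 18193 genes, which are not independent replicates, the differences of both contrasts correlated with Pearson's r = 0.565 and Spearman's rho = 0.546. R1 and IP14D-101 were also the closest pair of lines: the root mean square difference between their line means was 0.378 on the log2 scale. Pairs of B6 x D2 lines ran from 0.423 (ESC2 and IP14D-1) to 0.598 (ESC2 and IP20D-3). Pairs across the groups ran from 0.443 (IP14D-101 and IP14D-1) to 0.708 (R1 and IP20D-3).

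**Figure D1:**
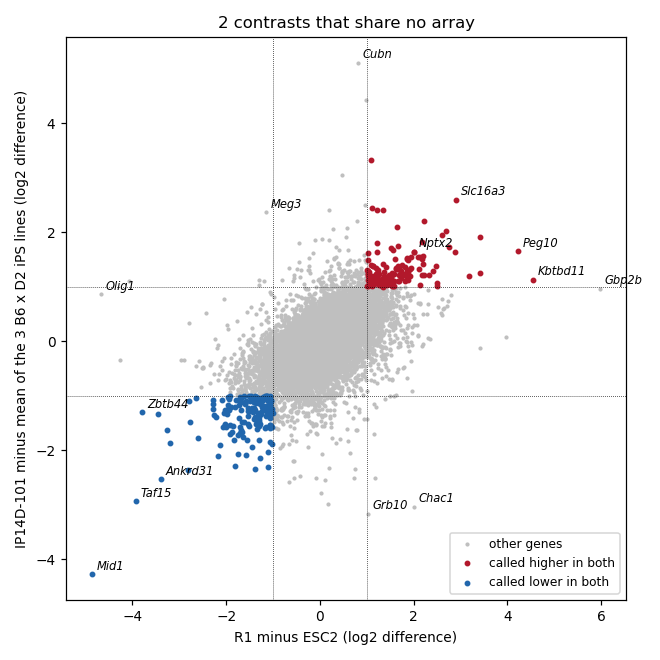
Each point is 1 of 18193 genes, with the log2 difference of R1 minus ESC2 on the horizontal axis and of IP14D-101 minus the mean of the 3 B6 x D2 iPS lines on the vertical axis; dotted lines mark a log2 difference of 1 either way. The 143 genes called higher in both (red) and the 164 called lower in both (blue) fill opposite corners, and Mid1 lies farthest out at the lower left, with -4.87 and -4.28.

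The split into higher and lower depended on where 0 was set. The median gene was 0.11 higher in the 129 lines, 0.15 higher in R1 than in ESC2 and 0.09 higher in IP14D-101 than in the B6 x D2 iPS lines. With each contrast centred on its median gene, 93 genes were called higher in both and 232 lower. With quantile normalisation repeated over the 18 arrays, the counts were 176 higher and 141 lower.

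Of 3 RNA control measures examined, 2 separated the groups. The 18S ribosomal RNA control had a linear intensity of 37.8 to 60.2 (median 48.5) on the 6 129 arrays and of 71.7 to 539.5 (median 194.1) on the 12 B6 x D2 arrays. The ratio of the 3′ to the 5′ actin control was 1.12 to 1.17 in the 129 arrays and 1.24 to 1.56 in the others. Neither measure overlapped between the groups. The same ratio of the GAPDH control did overlap, at 0.941 to 0.981 in the 129 arrays and 0.870 to 0.978 in the others, and its medians (0.960 and 0.910) stood in the opposite order to those of actin. IP14D-1 had the lowest 18S signal of the B6 x D2 lines, at 71.7 to 88.5. It was also the B6 x D2 line with the highest level for 106 of the 143 genes called higher in both (74.1%), compared with 30.7% of all genes. For the 164 genes called lower in both, IP36D-3 was most often the lowest B6 x D2 line (70 genes, 42.7%, against 17.2% of all genes), and IP14D-1 was lowest for 43 (26.2%, against 20.7%). When IP14D-1 alone stood for the B6 x D2 iPS lines, a setting chosen after the data were seen, 66 genes were called higher in both and 176 lower. The part of these RNA measures in the result was not tested.

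**Figure D2:**
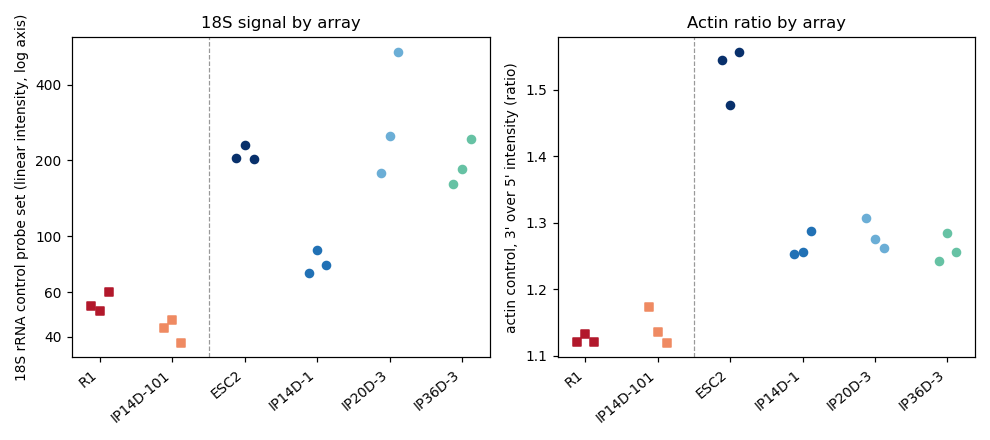
Each mark is 1 array, grouped by line, with the 129 lines to the left of the dashed line; the left panel shows the 18S ribosomal RNA control intensity on a log axis and the right panel the ratio of the 3′ to the 5′ actin control. The 6 129 arrays lie below all 12 B6 x D2 arrays in both panels, and the 18S signal of IP14D-1 (71.7 to 88.5) lies nearest to theirs.

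All 6 lines carried the markers of pluripotent cells. Line means ranged from 12.12 to 12.64 for Pou5f1, from 11.24 to 11.81 for Nanog and from 11.58 to 12.17 for Sox2. Of the fibroblast feeder markers, Lum lay between 3.19 and 3.38, Postn between 3.50 and 4.43, Col3a1 between 3.15 and 4.99, Col1a1 between 4.55 and 5.69 and Col1a2 between 4.35 and 6.51. Col1a2 was lower in R1 (5.06) than in ESC2 (6.51), by 1.45. Of the 30 fibroblast genes measured, 2 were called higher and 5 lower in R1 against ESC2, and 0 were called in the iPS contrast. Of all genes, 4.38% were called higher and 3.75% lower between the ES lines. In the iPS contrast these shares were 1.6% and 2.24%. The mean of the 30 genes was 5.88 in R1 and 5.57 in IP14D-101, against 5.17 to 6.25 in the B6 x D2 lines. The part of feeder RNA in the R1 and ESC2 difference was not tested. The blood marker Ptprc was at 2.53 to 2.81 and Cd68 at 5.96 to 7.08. The endothelial marker Cdh5 was at 3.25 to 3.69, and Tek was at 6.75 in IP20D-3 and 4.85 to 5.45 in the other lines.

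Mid1, on the X chromosome, encodes a microtubule-bound ubiquitin ligase. Its level was 3.96 to 5.02 (median 4.57) in the 6 129 arrays and 8.56 to 9.59 (median 9.10) in the 12 B6 x D2 arrays. Both 129 lines were low and all 4 B6 x D2 lines were high. The difference of the line means was -4.58 ± 0.276 (SE, 2 and 4 lines), with an adjusted p of 0.031. It was -4.87 for R1 against ESC2 and -4.28 for IP14D-101 against the 3 B6 x D2 iPS lines. The means of the 129 lines (4.18 and 4.81) lay below the median probe set of their arrays, so no fold is given. The difference rested on 1 of 3 Mid1 probe sets. The other probe sets lay between 2.33 and 3.80 in every line, near the lowest levels of the array, and differed by 0.02 and 0.11. The call was lost without R1, ESC2, IP14D-1, IP36D-3 or replicate 3 of every line (adjusted p of 0.0638 to 0.238) and with quantile normalisation repeated, with the difference staying between -4.90 and -4.27 over all left-out lines and replicates.

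Taf15, which encodes an RNA-binding protein, showed the same arrangement. Its level was 3.17 to 4.41 (median 3.55) in the 129 arrays and 6.53 to 7.71 (median 7.17) in the B6 x D2 arrays. The groups did not overlap. The difference was -3.37 ± 0.278 with an adjusted p of 0.0539, just past the threshold. Its other probe set differed by -1.04, with line means of 4.06 and 4.13 in the 129 lines and 4.35 to 5.98 in the others. Ankrd31, a gene of meiotic recombination on chromosome 13, had 4.15 to 4.86 (median 4.55) in the 129 arrays and 6.74 to 7.91 (median 7.11) in the B6 x D2 arrays. Its difference was -2.77 ± 0.26, with an adjusted p of 0.0539. Both genes were called lower in R1 against ESC2 (-3.93 and -3.38) and in IP14D-101 against the iPS lines (-2.94 and -2.54).

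Nptx2, which encodes a neuronal pentraxin, was the gene higher in the 129 lines with the smallest adjusted p among the 12 named rises (0.0539). Its level was 7.02 to 7.63 (median 7.40) in the 129 arrays and 5.29 to 5.94 (median 5.59) in the B6 x D2 arrays. All 6 129 arrays lay above the other 12. The difference was 1.80 ± 0.158, and its other probe set gave 1.90.

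**Figure D3:**
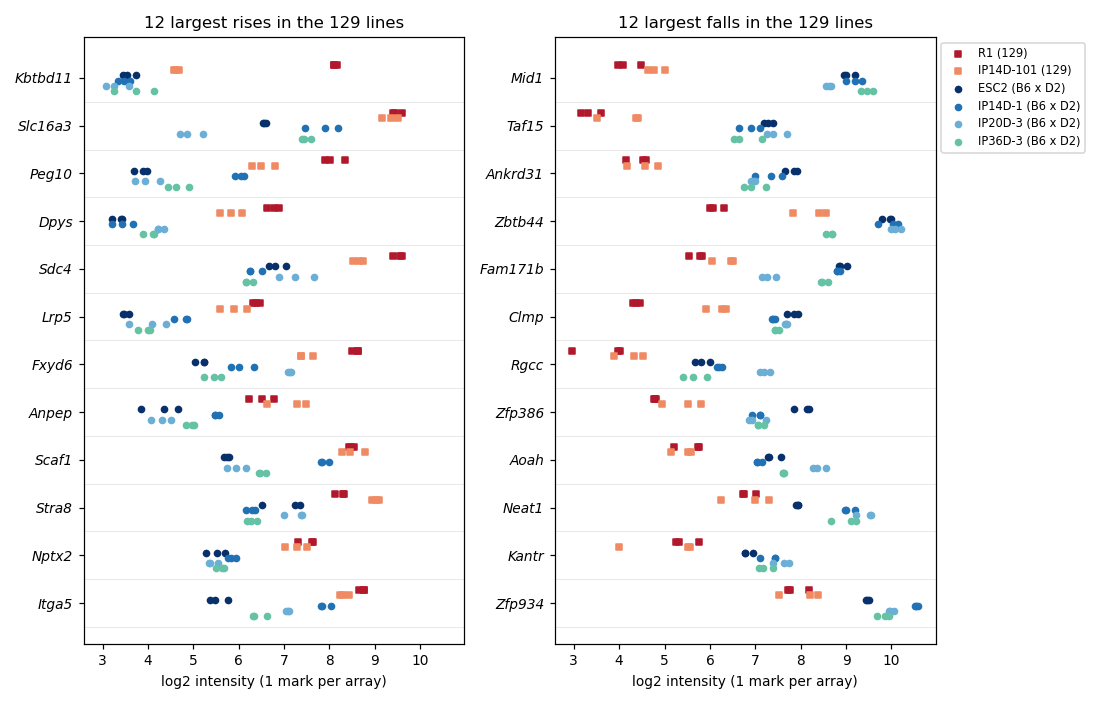
Each mark is the log2 intensity of 1 array for the 12 genes with the largest rises (left) and the 12 with the largest falls (right) in the 129 lines, among genes called alike in both contrasts whose groups do not overlap; squares are the 129 lines and circles the B6 x D2 lines. Mid1 shows the widest gap (3.96 to 5.02 against 8.56 to 9.59), and for Scaf1, Peg10 and Itga5 the IP14D-1 arrays lie closest to the 129 arrays.

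On every array of the 129 lines the level lay above all 12 B6 x D2 arrays for 1231 genes (6.77%) and below them for 829 (4.56%). Of the 307 genes called alike in both contrasts, 123 higher and 126 lower genes were separated in this way. Genes named here as high or low are the 12 largest of each direction among the separated genes that reached 6 in the higher group. The same values served for this choice, so the absence of overlap is a description of them.

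Slc16a3, the lactate exporter MCT4, was at 9.15 to 9.59 (median 9.43) in the 129 arrays and 4.71 to 8.19 in the B6 x D2 arrays. The 129 lines were alike, while the B6 x D2 lines ran from 4.93 in IP20D-3 to 7.85 in IP14D-1. Dpys, an enzyme of pyrimidine breakdown, was at 5.59 to 6.90 (median 6.35) in the 129 arrays and 3.22 to 4.36 (median 3.78) in the others, a difference of 2.52 ± 0.363 (adjusted p = 0.119).

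Among receptors and adhesion molecules, Lrp5, a co-receptor of Wnt signals, was at 5.58 to 6.47 in the 129 arrays against 3.46 to 4.85. Itga5, the alpha chain of the fibronectin receptor, was at 8.23 to 8.76 against 5.38 to 8.03. The IP14D-1 mean for Itga5 (7.89) was close to that of IP14D-101 (8.32). Anpep, a surface aminopeptidase, was at 6.23 to 7.48 against 3.84 to 5.56, and its difference was alike in both contrasts, 2.22 and 2.21. Sdc4, a heparan sulphate proteoglycan, was at 8.51 to 9.60 against 6.16 to 7.65, but its other probe set was lower in the 129 lines by 0.92.

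Fxyd6, a regulator of the sodium pump, differed by 3.42 between R1 and ESC2 and by 1.26 between IP14D-101 and the iPS lines. Scaf1, a partner of RNA polymerase II, was at 8.28 to 8.78 in the 129 arrays, 7.82 to 7.99 in IP14D-1 and 5.67 to 6.60 in the other B6 x D2 arrays. Stra8, a retinoic acid target that starts meiosis, was at 8.13 to 9.09 against 6.16 to 7.40. It was higher in IP14D-101 (mean 9.02) than in R1 (8.25). Kbtbd11, a Kelch and BTB domain gene, had 8.12 in R1, 4.62 in IP14D-101 and 3.30 to 3.71 in the 4 B6 x D2 lines. Its rise was thus mainly that of R1, and the difference between the contrasts was 3.42 ± 0.208 (limma adjusted p = 1.8e-09).

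Among the falls, Zbtb44, a BTB zinc finger gene, was at 5.99 to 8.55 in the 129 arrays against 8.56 to 10.21. R1 was the lowest line at 6.12, and IP14D-101 (8.26) lay just under IP36D-3 (8.65). Its other probe set with signal was higher in the 129 lines by 0.87, so the direction for Zbtb44 depended on the probe set. Fam171b, a membrane protein gene, was at 5.54 to 6.50 against 7.15 to 9.02, and its other probe set gave -2.14. Clmp, an adhesion molecule of epithelial junctions, had 4.38 in R1, 6.18 in IP14D-101 and 7.40 to 7.83 in the B6 x D2 lines.

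Rgcc, a cell cycle regulator, was at 2.96 to 4.52 against 5.41 to 7.32, and Aoah, an enzyme that inactivates bacterial lipopolysaccharide, was at 5.15 to 5.75 against 7.04 to 8.57. Both fell by similar amounts in each contrast, with -2.17 and -2.11 for Rgcc and -1.81 and -2.29 for Aoah. Of 104 genes called alike in both contrasts that had a further probe set at 6 or above, all such probe sets moved in the same direction for 98 and none did for 6. Whether a strain difference lies under a probe was not tested, since probe sequences were not used here.

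**Figure D4:**
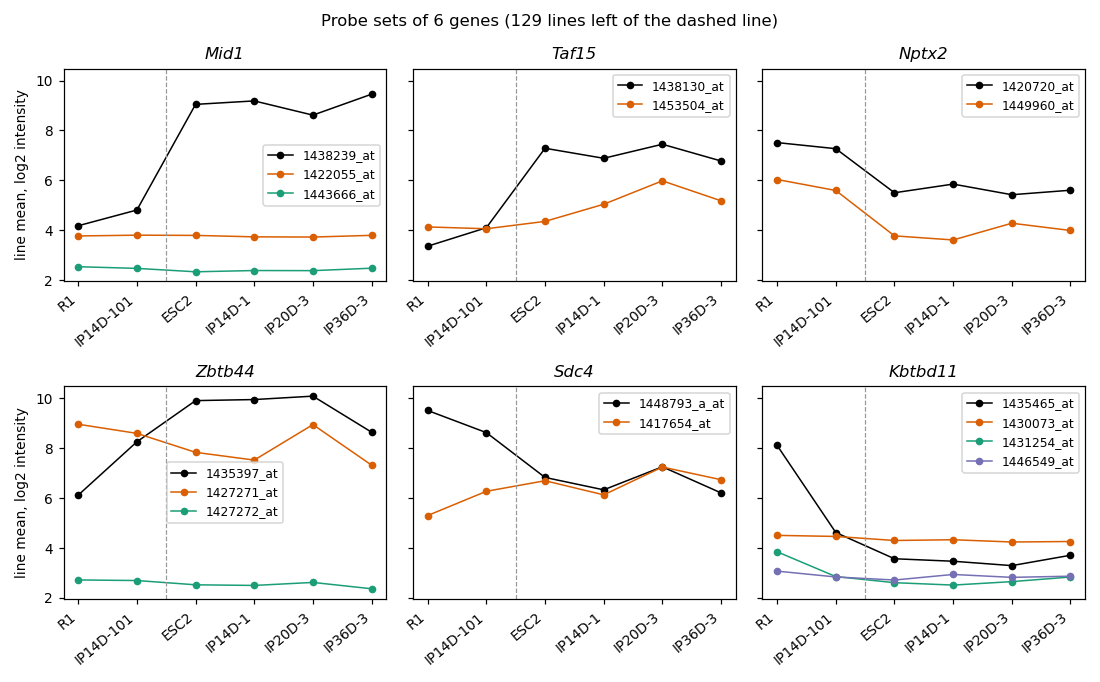
Line means (log2 intensity) of every probe set of 6 named genes, with the 129 lines left of the dashed line; each colour is 1 probe set and the black one, with the highest mean, represents the gene. The probe sets of Nptx2 differed in parallel (1.80 and 1.90), those of Zbtb44 and Sdc4 in opposite directions, and the difference of Mid1 was carried by 1 probe set.

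Neat1, the scaffold of nuclear paraspeckles, was at 6.25 to 7.30 (median 6.88) in the 129 arrays and 7.89 to 9.56 (median 9.05) in the B6 x D2 arrays. Its second probe set, at 5.60 to 5.94 in all lines, differed by 0.16. Malat1, its neighbour on chromosome 19 and a nuclear speckle RNA, had means of 8.78 in R1 and 8.70 in IP14D-101 against 9.72 to 11.01 in the B6 x D2 lines. The groups overlapped for Malat1, at 7.85 to 9.42 in the 129 arrays and 9.15 to 11.26 in the B6 x D2 arrays. Kantr, an RNA from the X chromosome, was at 3.99 to 5.75 against 6.76 to 7.74. Snhg1, a host gene of small nucleolar RNAs, was at 10.61 and 10.62 in the 129 lines against 12.19 to 13.19. Each of these 4 RNAs was called lower in both contrasts, also without the third array of IP14D-101. Snhg1 and Malat1 were picked after their values were seen, and no test was made of noncoding RNAs as a class.

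Genes with zinc finger symbols were picked out after the values were seen, so their count is a description. Of 400 such genes measured, 33 were called lower in both contrasts (8.25%, against 0.901% of all genes) and 4 higher (Zfp385a, Zfp395, Zfp42 and Zfp57). Without the third array of IP14D-101, 19 were called lower and 4 higher, and without replicate 3 of every line 17 and 4. The median difference of the 400 genes was -0.25, against 0.11 for all genes. With each contrast centred on its median gene 45 were called lower and 3 higher, with quantile normalisation repeated 29 and 6, and with IP14D-1 alone as the iPS reference 33 and 2. Zfp386 was at 4.77 to 5.81 in the 129 arrays and 6.85 to 8.18 in the B6 x D2 arrays, with -1.96 at its other probe set. Zfp934 was at 7.52 to 8.39 against 9.43 to 10.59, but its other probe set differed by only -0.26. Zfp869 and Zfp958 are both on chromosome 8: Zfp869 was at 6.64 to 6.95 against 8.06 to 8.55, and Zfp958 at 6.77 to 7.76 against 8.39 to 8.88. The 6.77 of Zfp958 was the third array of IP14D-101, and the other 129 arrays began at 7.06. The adjusted p was 0.0539 for both. Zinc finger genes of a cluster are close copies, and probes can read more than 1 of them, so values for single members are uncertain.

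Some of these genes were neighbours. Among 18145 tested genes placed on the GRCm38.p6 assembly, 10 runs of adjacent genes were called in the same direction, 8 lower and 2 higher, with 21 genes in all. On chromosome 17, the lower runs were Zfp995, Zfp942 and Zfp943, then Zfp758 and Zfp946, then Zfp959 and Zfp119b, and Ppard and Fance formed a higher run. Lower runs on other chromosomes included, on chromosome 13, Zfp935 and Zfp934 and, on chromosome 19, Malat1 and Neat1. The means of Zfp942 were 5.72 and 5.73 in R1 and IP14D-101 and 6.52 to 7.62 in the B6 x D2 lines. Those of Zfp943 were 4.22 and 4.19 against 4.78 to 5.59, and those of Zfp758 were 5.57 and 4.70 against 5.86 to 6.87. Zfp119b stood further apart, at 4.53 and 4.63 against 5.72 to 6.45. The calls of Zfp995, Zfp942, Zfp943 and Zfp959 rested on the third array of IP14D-101: without it the iPS differences were -0.89, -0.77, -0.70 and -0.94, short of a call. Those of Zfp758 (-1.21), Zfp946 (-1.17) and Zfp119b (-1.20) passed without it.

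The RefSeq promoter stretches of 3 of these chromosome 17 genes are shown because the genes lay in neighbouring lower runs and the stretches overlap or nearly match, with Zfp942 and Zfp943 called only when the third array of IP14D-101 is kept. Each holds the 150 bases before the gene's start on GRCm38.p6, a B6 sequence, so they show no strain difference. Capitals mark CACGTG, the E-box hexamer, which reads the same on both strands.
Zfp943 (chr17:21962409-21962558, plus strand): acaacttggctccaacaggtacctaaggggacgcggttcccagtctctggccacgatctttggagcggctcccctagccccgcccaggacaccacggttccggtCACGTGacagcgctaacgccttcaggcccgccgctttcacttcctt
Zfp758 (chr17:22361313-22361462, plus strand): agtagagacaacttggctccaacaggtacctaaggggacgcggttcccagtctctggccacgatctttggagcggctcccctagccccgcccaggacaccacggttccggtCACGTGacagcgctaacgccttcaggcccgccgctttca
Zfp942 (chr17:21962465-21962614, minus strand): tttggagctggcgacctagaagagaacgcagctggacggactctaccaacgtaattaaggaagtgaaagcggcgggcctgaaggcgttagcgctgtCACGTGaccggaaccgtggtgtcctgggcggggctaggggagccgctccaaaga
The 150 bases of Zfp758 that were aligned begin further from the start than those printed and share only part of them. They matched the Zfp943 promoter at 99.3%, with 1 edit. Zfp943 and Zfp942 are transcribed away from each other from a shared stretch, and their 150-base windows overlap by 94 bases on opposite strands, so they hold the same CACGTG. In windows of 250 bases before the start, CACGTG was present at 5 of 34 starts of the zinc finger genes called lower in both contrasts (14.7%; 28 of the 33 genes had a start in the table), at 7.38% of starts of tested genes and at 6.02% of all 32851 starts. These starts include near copies and are not independent.

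Other parts of the genome held uneven shares of the calls. On the X chromosome, 18 of 617 genes tested were called lower in both contrasts (2.92%) and 1 higher (0.162%). Of all genes, 0.901% were called lower and 0.786% higher. On chromosome 13 the counts were 16 lower (2.28%) and 0 higher among 702 genes. On chromosome 11 they were 7 lower (0.485%) and 21 higher (1.46%) among 1443. Chromosome 17 had 16 lower (1.92%) and 11 higher (1.32%) among 834, and chromosome 15 had 3 lower (0.414%) and 10 higher (1.38%) among 724. On the Y chromosome 2 of 9 genes were called lower. No test compared the chromosomes. Of 9160 probe sets without a gene symbol, 238 were called lower in both contrasts (2.60%) and 16 higher (0.175%). For probe sets with 1 symbol the counts were 432 lower (1.24%) and 257 higher (0.735%) of 34945. When all 45037 probe sets were tested on line means, 41 were called (0.091%), 39 of them lower in the 129 lines. Of the 39, 18 had no symbol.

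Gene lists for pluripotency, lineages, imprinting, immunity, stress and metabolism held 566 different measured genes in 27 lists. Both contrasts called 13 of these genes higher (2.30%) and 9 lower (1.59%), against 0.786% and 0.901% of all genes, and 12 lists had no such member.

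**Figure D5:**
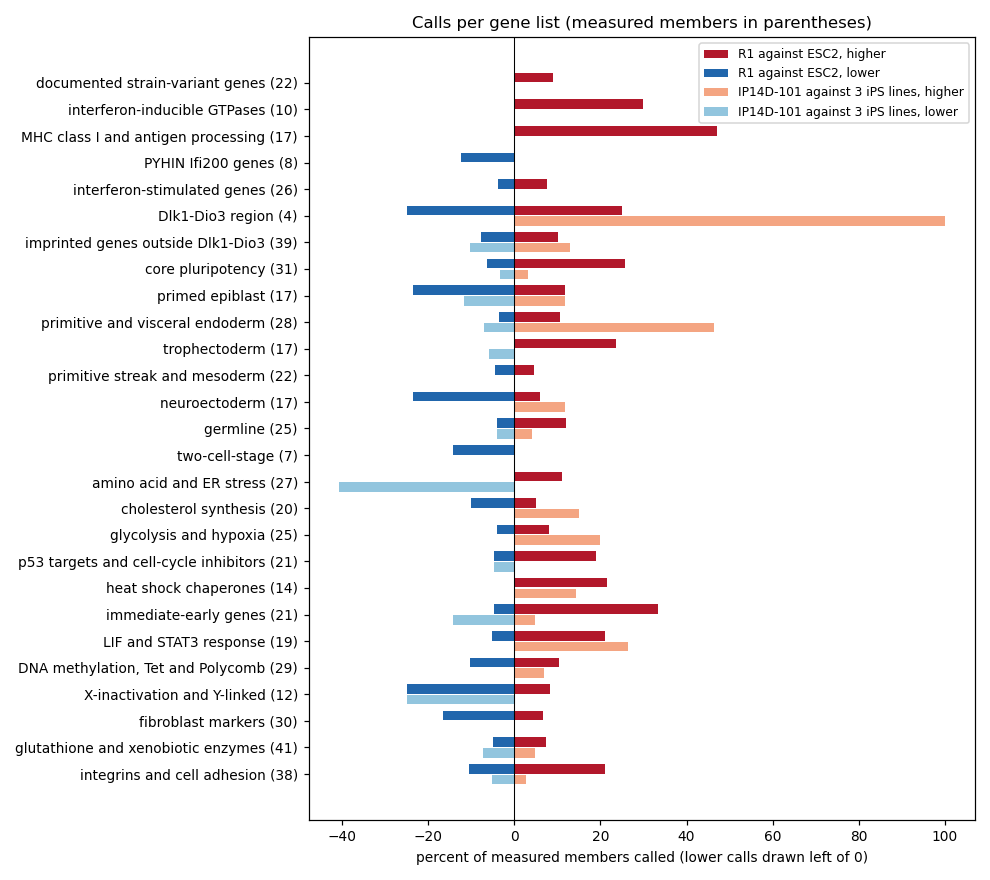
For each of 27 gene lists, bars give the percent of measured members called higher (right of 0) and lower (left of 0) in R1 against ESC2 (dark) and in IP14D-101 against the 3 B6 x D2 iPS lines (pale). Antigen processing genes were called higher between the ES lines (8 of 17) and not in the iPS contrast (0 of 17), while 13 of 28 endoderm genes were called higher in the iPS contrast and 3 between the ES lines.

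Of the 31 pluripotency genes measured, 8 were called higher in R1 than in ESC2 (25.8%, against 4.38% of all genes). Another 2 were called lower, where 3.75% of all genes were. In the iPS contrast 1 was called higher and 1 lower, where 1.6% and 2.24% of all genes were. Only Zfp42 (Rex1), a marker of the naive state, was called alike in both contrasts (0.786% of all genes were called higher in both). It was at 10.94 to 11.25 (median 11.14) in the 129 arrays and 9.08 to 9.96 (median 9.25) in the B6 x D2 arrays, a difference of 1.75 ± 0.236 (adjusted p = 0.119). Every 129 array lay above every B6 x D2 array. Fgf5, a marker of the primed epiblast, was called lower in both contrasts, with 4.83 in R1 and 4.03 in IP14D-101. ESC2 (6.86), IP36D-3 (6.43) and IP14D-1 (5.51) were higher, but IP20D-3 (4.09) was not. Of 17 primed epiblast genes measured, only Fgf5 was called alike in both contrasts (0.901% of all genes were called lower in both). In R1 against ESC2, 2 of the 17 were called higher and 4 lower. In the iPS contrast, 2 were called higher and 2 lower. The median difference of the 17 was -0.02, against 0.11 for all genes. Esrrb, another naive factor, was called higher in R1 than in ESC2 (1.33), and its difference in the iPS contrast was 0.49.

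Imprinted genes moved in both directions. Peg10, a paternally expressed gene of retrotransposon origin, was at 6.30 to 8.34 (median 7.35) in the 129 arrays and 3.69 to 6.12 (median 4.34) in the B6 x D2 arrays. R1 was higher than ESC2 by 4.23 and IP14D-101 higher than the iPS lines by 1.65, and the contrasts differed by 2.58 (adjusted p = 4.7e-08). Peg3, a paternally expressed zinc finger gene, was at 8.63 to 9.59 against 9.91 to 11.74, a difference of -1.78 ± 0.464 (adjusted p = 0.151). Kcnq1ot1, the noncoding RNA of an imprinted cluster on chromosome 7, was at 5.48 to 7.12 against 7.77 to 8.35. Its iPS difference was -1.48, and -0.93 without the third array of IP14D-101, short of a call. Of the 39 imprinted genes measured outside the Dlk1-Dio3 region, these 3 were called alike in both contrasts, and the median difference of the 39 was -0.08. They were 1 higher and 2 lower, where 0.786% and 0.901% of all genes were. In R1 against ESC2, 4 of the 39 were called higher and 3 lower (4.38% and 3.75% of all genes). In the iPS contrast 5 were called higher and 4 lower (1.6% and 2.24% of all genes).

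In the Dlk1-Dio3 region, Dlk1, a Notch-like ligand expressed from the paternal allele, was called higher in both contrasts, with 8.34 in R1, 7.02 in IP14D-101, 7.19 in IP14D-1 and 5.22 to 5.84 in the other lines. Its groups overlapped, since IP14D-1 lay above IP14D-101. Meg3, expressed from the maternal allele, went in opposite directions: R1 (10.19) was lower than ESC2 (11.34), and IP14D-101 (9.71) was higher than the mean of the B6 x D2 iPS lines, which were at 10.89 in IP14D-1, 5.23 in IP20D-3 and 5.90 in IP36D-3. The iPS difference for Meg3 (2.37) thus came from IP20D-3 and IP36D-3 and not from IP14D-1.

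Among signalling and metabolic genes, Srebf2, the regulator of cholesterol synthesis, was at 9.06 and 9.33 in R1 and IP14D-101 and 7.81 to 8.37 in the B6 x D2 lines. Of 20 cholesterol synthesis genes measured, 1 was called higher and 2 lower in R1 against ESC2 (4.38% and 3.75% of all genes). In the iPS contrast 3 were called higher and 0 lower (1.6% and 2.24% of all genes). Their median difference was -0.43 between the ES lines and 0.47 in the iPS contrast. Pfkl, a glycolytic phosphofructokinase, was at 10.89 and 11.35 against 9.01 to 10.58. Bag3, a co-chaperone, was at 8.39 and 8.01 against 6.09 to 7.15. Gstp1, a glutathione transferase, was at 11.32 and 11.78 against 10.26 to 10.76. All 4 genes were called higher in both contrasts with no overlap between the groups, each being the only such member of its list. Their lists, in this order, held 20, 25, 14 and 41 measured genes. Of all genes, 0.786% were called higher in both contrasts and 6.77% lay above without overlap. The median differences of the lists were 0.15, 0.40, 0.20 and -0.11, against 0.11 for all genes. Uty, on the Y chromosome, was called lower in both contrasts, at 5.52 and 5.01 against 5.97 to 7.54.

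Zfp57, a zinc finger protein that protects imprints, was at 8.86 and 9.57 in R1 and IP14D-101. ESC2 (6.26), IP36D-3 (7.03) and IP20D-3 (7.11) were lower, while IP14D-1 (8.70) lay just under R1. Polr2a, the largest subunit of RNA polymerase II, was at 10.65 and 10.97 in the 129 lines, 10.77 in IP14D-1 and 8.57 to 8.92 in the other lines. Polr2a was picked after its values were seen. For both genes the high level was shared by IP14D-1, a B6 x D2 line. IP14D-1 also had the lowest 18S signal of the B6 x D2 lines, and a link to these levels was not tested.

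The contrasts differed from each other by at least 1 for 880 genes (4.84% called in the test of the difference). Of the 307 genes called alike in both, 30 were among them. Gbp2b, an interferon-induced GTPase, was at 8.98 in R1, 4.18 in IP14D-101 and 2.99 to 3.33 in the B6 x D2 lines, so that all 129 arrays lay above the others. The size was unequal, with 5.99 between the ES lines and 0.97 between the iPS lines. Of the 10 interferon-inducible GTPases measured, 3 were called higher in R1 against ESC2 and 0 in the iPS contrast. Of 17 antigen presentation genes, 8 were called higher in R1 (47.1%, against 4.38% of all genes) and 0 in IP14D-101, where 1.6% of all genes were; no test compared the lists between the contrasts. H2-D1, a class I heavy chain, was at 9.05 in R1, 7.77 in IP14D-101 and 7.05 to 7.77 in the B6 x D2 lines. Its difference between the contrasts was 1.71 (adjusted p = 1.1e-09).

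Of 28 measured primitive and visceral endoderm genes, 13 were called higher in IP14D-101 against the iPS lines and 3 in R1 against ESC2, where 1.6% and 4.38% of all genes were. In the iPS contrast 2 members were called lower. The mean of the list was 7.26 in IP14D-101, 6.27 in R1 and 5.87 to 6.05 in the B6 x D2 lines. Cubn, an endocytic receptor of visceral endoderm, was at 9.56 in IP14D-101 and 3.90 to 5.36 in the other lines. Srgn, a proteoglycan core protein, was at 9.14 against 3.88 to 5.58. Dab2, an endocytic adaptor, was at 8.92 against 5.18 to 6.50. The endoderm factor Gata6 was called higher in both contrasts (1.08 and 3.32), with 7.34 in IP14D-101 and 4.85 in R1 against 3.68 to 4.25. The means of R1 and of the B6 x D2 lines lay below the median probe set of their arrays. The other Gata6 probe sets differed by 0.78 and 0.03 between the ES lines and by 3.24 and 0.41 in the iPS contrast. In bulk samples, more cells of a type and more RNA per cell cannot be told apart.

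R1 stood alone in other genes. Olig1 and Olig2, neural lineage factors, were at 3.90 and 3.10 in R1, whereas all other lines lay at 7.82 to 9.22 for Olig1 and 6.90 to 8.22 for Olig2. Rpgrip1, a ciliary gene, was at 6.41 in R1 and 10.67 to 11.57 elsewhere. Itga8, an integrin chain, was at 7.33 in R1 and 3.37 to 3.50 elsewhere. Mab21l4 was at 6.26 in R1 and 2.76 to 3.32 elsewhere. For these 5 genes IP14D-101 was on the side of the B6 x D2 lines.

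Of 27 amino acid and endoplasmic reticulum stress genes, 11 were called lower in IP14D-101 against the iPS lines, among them Chac1, Atf3 and Trib3, and 3 were called higher in R1 than in ESC2. Of all genes, 2.24% were called lower in the iPS contrast and 4.38% higher between the ES lines. Chac1, a glutathione-degrading enzyme, was at 7.65 in R1 and 7.34 in IP14D-101, with 5.63 in ESC2 and 9.42 to 10.97 in the B6 x D2 iPS lines. The level was thus alike in both 129 lines and the references differed. Grb10, an imprinted growth regulator, was lowest in IP14D-101 (7.99) and at 10.26 to 11.71 in the other lines.

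Of 22 measured genes documented as variant between inbred strains, 2 were called higher in R1 against ESC2 (4.38% of all genes were) and 0 in both contrasts. Of all genes 0.786% and 0.901% were called higher and lower in both, so a count of 0 among 22 is near the background. The groups did not overlap for 2 of the 22. Without overlap, 6.77% of all genes were higher and 4.56% lower, so a count of 2 among 22 is near the background too. Casp4 was at 2.61 to 2.74 in every line, and Glo1 was at 11.09 to 11.59. The median difference of the 22 genes was 0.14, near the 0.11 of all genes.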

How the data were processed

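The authors processed the arrays with RMA, per the submitters' processing notes and the design text, which give no version. The deposited values are linear probe set intensities, with array medians of 29.2 to 30.5. The design text calls the 3 arrays of a line biological replicates, but no label names separate cultures, so their spread may be technical. Intensities were taken to log2. Of 45101 probe sets, 64 controls were left out; 34945 had 1 gene symbol in the platform annotation, 932 several and 9160 none. Of the 34945, 34741 were found in a RefSeq table (GRCm38.p6) and 0 symbols changed. Each of 18193 genes was represented by its brightest probe set on average.

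Line means were tested in limma 3.58.1 (R 4.3.3) with 4 residual degrees of freedom. The contrasts of lines came from 1 model of line means over all arrays (12 residual degrees of freedom). P-values were Benjamini-Hochberg adjusted over all genes. A call needed a log2 difference of 1 or more either way and an adjusted p below 0.05. A correlation between contrasts has no p, since genes are not replicates. The number of arrays and lines limits the precision.

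Named genes are the 12 largest rises and 12 largest falls that were called, had a group mean of at least 6 in the higher group and did not overlap between groups, without clone or predicted symbols; up to 4 called members per list; the 6 largest differences of the contrasts each way; and some markers. The members and lists were chosen with earlier results of these data known. Same-numbered arrays of different lines correlated at -0.25 to 0.26 (median 0.04; 13 of 45 pairs over 0.1), so the numbers were not taken as pairs. No array repeated another. Promoter starts came from RefSeq (GRCm38.p6) and were compared with edlib; Python 3.11.15 with pandas 2.3.3 and matplotlib 3.10.9 made tables and plots. The scripts were tested on simulated data.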

Additional observations from a re-analysis of the deposited data

Results flagged for a closer look

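In 3 of 64 genes examined, 1 of the 4 B6 x D2 line means lay far from the other 3, which chance gives in about 1 of 20 groups. The gap to the nearest line divided by the range was 0.876 for Zbtb44 (IP36D-3 low), 0.904 for Zfp386 (ESC2 high) and 0.841 for Pou5f1 (ESC2 low).

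For 30 of the 64 genes taken by the rule for named genes, the limma test of the difference between the contrasts gave a call. Of all genes, 4.84% were called in this test. The 64 genes include the 6 largest differences of the contrasts each way, so the count of 30 follows in part from the choice. Among genes called higher in both, the ES difference was larger for Kbtbd11 (by 3.42), Peg10 (2.58), Fxyd6 (2.16), Itga5 (1.98), Dpys (1.50), Lrp5 (1.24) and Scaf1 (1.02), and smaller for Stra8 (-1.20), Gata6 (-2.24) and Col4a2 (-1.32); for Dlk1 it was larger (1.49). Among genes called lower in both, the ES difference was the more negative for Zbtb44 (-2.49), Clmp (-2.11), Zfp386 (-1.64), Fam171b (-1.33) and Ptgs2 (-1.28), and the less negative for Neat1 (1.22). Of the genes chosen for this difference, it was 5.06 for Chac1, 5.02 for Gbp2b, 4.20 for Grb10, 3.68 for Atf3, 3.89 for Itga8 and 3.54 for Mab21l4. It was -5.54 for Olig1, -5.18 for Olig2, -4.30 for Cubn, -3.92 for Rpgrip1, -3.52 for Meg3 and -3.44 for Srgn. For Myc, called in neither contrast, it was -1.14.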

How the results depend on the processing

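Tested on line means, 1 gene was called, and this count moved with nearly every setting: 0 with cell type as a term, 558 with the line as a random effect over arrays, 619 with fixed line means over arrays, 41 of all probe sets, 5 among genes at or above the median level, 8 after centring, and 0 with quantile normalisation repeated. Leaving out 1 line gave 0 to 7 calls, and leaving out 1 replicate of every line 0 to 10. Taking all probe sets gave 4056 calls in R1 against ESC2, 1803 in the iPS contrast and 963 in both; with the adjusted p alone these were 10070, 9903 and 5814. The iPS contrast gave 456 calls without IP20D-3 and up to 1025 without IP14D-1, and both contrasts together 221 to 405. Without 1 replicate, 224 to 368 genes were called in both, 1403 to 1574 between the ES lines, 602 to 822 in the iPS contrast and 870 to 1010 in the difference of the contrasts. Without the third array of IP14D-101 alone, 577 genes were called in the iPS contrast, 231 in both and 1012 in the difference of the contrasts. With the replicate block, the same counts were called (1479, 699, 307 and 880), because the fold decided the calls; by adjusted p alone the block moved 10070 calls to 10145 between the ES lines. Of the 24 named rises and falls, 0 changed direction when a line or replicate was left out. They were chosen for no overlap between the groups, so this outcome was fixed in advance. At their other probe sets, Sdc4 (-0.92) and Zbtb44 (0.87) did change direction. Because the line is the unit, 2 and 4 lines limit every statement about strains.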
